A study of Mus musculus with 16 samples.

Results

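The effect of dexamethasone (Dex) on LPS-treated macrophages that lack NELF-B was measured by RNA-seq in 6 of the 16 libraries of the study. These were the libraries of 3 NELF-B knockout (KO) mice, each of which gave bone-marrow-derived macrophages (BMDM) treated with LPS alone and BMDM treated with LPS and Dex. The comparison was made within each mouse over all 9614 genes in the deposited values. BMDM are macrophages grown in culture from marrow cells. The mice were 8-week-old C57BL/6 males with the genotype LysM-Cre:NELF-B fl/fl, in which exon 4 of Nelfb is flanked by loxP sites and is removed by a Cre driven by the myeloid LysM promoter. The wild type (WT) mice were LysM-Cre:NELF-B wt/wt, so both genotypes carried the Cre. LPS was used at 10 ng/ml for 1 hr and Dex at 100 nM together with LPS. Letters A, B and C name the mice of each genotype, and the 3 WT mice gave 6 libraries of the same kind, against which the KO values are set. Untreated libraries (U) came from KO mice A and B and WT mice A and B.

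Dex is a synthetic glucocorticoid that binds the glucocorticoid receptor (GR), a transcription factor that moves to the nucleus, activates genes through its own DNA elements and lowers the output of genes driven by NF-kB and AP-1. LPS, a bacterial cell wall component, acts through the receptor Tlr4 to turn on cytokine, chemokine and interferon genes within minutes. NELF is a protein complex that holds RNA polymerase II in a paused state close to the start of genes, and NELF-B is one of its subunits. The comparison addresses which LPS-induced genes Dex still lowers, and which genes it raises, when this complex is depleted.

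Nelfb itself was low in all 6 KO libraries, with nearly equal values with and without Dex. With LPS its level in the KO was 3.27, 4.21 and 3.48 log2 CPM, values being given in the order of mice A, B and C here and below, and with LPS and Dex it was 3.28, 4.22 and 3.53. CPM are scaled counts, reads of a gene relative to the size of its library. In WT the level was 5.66, 5.76 and 5.59 log2 CPM with LPS and 5.68, 5.73 and 5.64 with LPS and Dex, above every KO library. KO mouse B kept the most Nelfb RNA, and reads outside the deleted exon still count toward the gene. The Dex change of Nelfb in the KO was 0.02 ± 0.05 on the log2 scale (SE, n = 3 mice, limma adjusted p = 0.809).

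The 6 KO libraries held 30600000 to 49700000 reads on the listed genes, and their log2 CPM correlated with r of 0.966 to 0.993 across genes. Of 12 macrophage markers 11 were measured, with a summed level of 15110 to 15230 CPM with LPS and 15050 to 15560 CPM with LPS and Dex. None of the 11 was called, the changes running from -0.24 for Spi1 to 0.34 for Cd14. Of the markers of other cells, 1 of 9 neutrophil genes (S100a8, 13.9 to 36.3 CPM with LPS and 20.7 to 41.5 with Dex added), 1 of 7 dendritic cell genes (Ccr7, 0.507 to 8.36 and 0.696 to 10.1 CPM), 1 of 8 B and T cell genes (Cd79b, 15.1 to 35.0 and 14.0 to 31.0 CPM) and 4 of 6 fibroblast genes (99.7 to 125 and 105 to 145 CPM in sum) were measured, and 0 of 8 erythroid and mast cell genes. None of these markers was called over the 3 mice, and without mouse A S100a8 and 2 fibroblast genes were called higher with Dex. Ccr7 and Cd79b were highest in mouse B in both conditions. The untreated library of WT mouse A stood apart from the rest, with r of 0.83 to 0.909 against each other library, where the other 15 libraries had r of at least 0.924 among themselves. It enters the classing of genes by LPS in WT and the alternative fit of all 16 libraries, and not the main fit.

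With Dex, 238 genes were lower (2.48% of 9614) and 257 higher (2.67%) in the LPS-treated KO macrophages, called at a limma adjusted p under 0.05 and a change of over 1.3-fold. All 238 lower genes went down in each of the 3 mice, against 22.4% of all genes, and 256 of the 257 higher genes went up in each, against 21.4%. The exception was Rgs1, a regulator of G protein signalling, which changed by 0.62, -0.11 and 0.65 in mice A, B and C (named for this after its values were seen). Together the 495 called genes were 5.15% of all genes. Between the LPS and the LPS + Dex libraries 170 of the lower genes did not overlap (4.45% of all genes were separated in that direction). The same held for all but 59 of the higher genes (5.22%). The calls rest on these same libraries, so the agreement of mice and the separation of groups are descriptions and not independent support. The lower genes had a median log2 change of -0.56 and 30 of them fell over 2-fold, whereas the higher genes had a median of 0.63 and 56 of them rose over 2-fold. Over all genes the median change was -0.0023. The counts were 108 lower and 125 higher in a blocked fit of all 16 libraries, and 49 and 88 in a fit that did not pair the libraries by mouse. In bulk RNA, fewer cells of a type and less RNA per cell cannot be told apart.

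**Figure D1:**
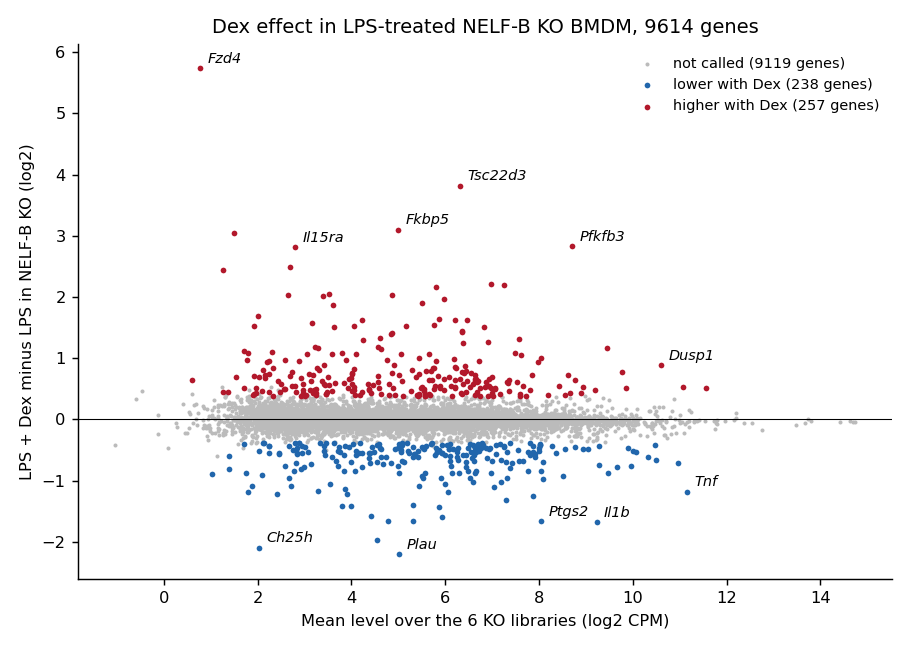
Log2 change with Dex in LPS-treated KO macrophages (vertical axis, mean of 3 mice) against the mean log2 CPM over the 6 KO libraries (horizontal axis) for 9614 genes. Blue points are the 238 genes called lower and red points the 257 called higher. The decreases end at -2.21 (Plau) while the increases reach 3.82 (Tsc22d3) and, for the scarce gene Fzd4, 5.74.

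Among the genes that fell, Plau, the urokinase-type plasminogen activator, moved most. Its level was 6.09, 6.42 and 5.84 log2 CPM with LPS and 3.98, 4.0 and 3.76 with LPS and Dex. The groups did not overlap, and with Dex Plau stood below the untreated level of 4.15 and 4.57 in mice A and B. The change was -2.21 ± 0.06 (SE, n = 3 mice), or 4.62-fold lower, with an adjusted p of 2.02e-10. Ch25h, which makes 25-hydroxycholesterol, went from 3.49, 2.29 and 3.44 to 1.12, 0.64 and 1.16 log2 CPM, a change of -2.10 ± 0.13 (adjusted p = 1.77e-07). Mouse B had the lowest Ch25h with LPS and the smallest fall. Olr1, a scavenger receptor for oxidized LDL, went from 5.67, 5.80 and 5.11 to 3.76, 3.62 and 3.28 log2 CPM, a change of -1.98 ± 0.09 (adjusted p = 1.02e-08).

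Ptgs2, the inducible cyclooxygenase of prostaglandin synthesis, was 9.03, 9.12 and 8.49 log2 CPM with LPS and 7.33, 7.51 and 6.81 with LPS and Dex. The 3 mice fell by nearly equal amounts, with a mean of -1.66 ± 0.04 (adjusted p = 9.16e-11), and each stayed far above the untreated 2.50 and 1.88. Gadd45a, a growth arrest gene, fell by 1.66 ± 0.08, Egr2, an immediate-early transcription factor, by 1.60 ± 0.09, and Serpinb2, the plasminogen activator inhibitor of macrophages, by 1.58 ± 0.08. For Serpinb2 the groups overlapped, since mouse B had 6.34 with LPS and 4.95 with Dex added while mouse C went from 4.33 to 2.57. Pdgfb, a growth factor gene, fell by 1.42 ± 0.10 and with Dex was below its untreated level of 3.77 and 4.31, at 3.30, 3.44 and 3.13 log2 CPM.

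Among the genes that rose and were above the level set for naming, Tsc22d3 moved most. Tsc22d3, which codes for the anti-inflammatory protein GILZ, was 4.54, 4.33 and 4.35 log2 CPM with LPS and 8.29, 8.21 and 8.17 with LPS and Dex. With LPS it stood below the untreated 5.93 and 5.68 and with LPS and Dex above them, and it rose by 3.82 ± 0.06 over LPS (14.1-fold, adjusted p = 1.06e-12). Fkbp5, a co-chaperone that lowers GR hormone affinity, was 3.40, 3.58 and 3.34 with LPS and 6.40, 6.79 and 6.43 with Dex added (3.10 ± 0.10, adjusted p = 6.14e-10). Pfkfb3, which makes the allosteric activator of glycolysis fructose-2,6-bisphosphate, went from 7.07, 7.65 and 7.17 to 9.88, 10.57 and 9.92 (2.83 ± 0.04, adjusted p = 2.26e-13). With LPS alone Fkbp5 and Pfkfb3 were close to their untreated levels, which were 3.61 and 3.32 for Fkbp5 and 7.18 and 7.68 for Pfkfb3. Il15ra, the alpha chain of the IL-15 receptor, rose by 2.81 ± 0.09, Klf9, a Krüppel-like factor, by 2.48 ± 0.09, and Per1, a clock repressor, by 2.21 ± 0.07.

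Other large increases included those of scarce genes. Prss16, a serine protease gene, rose by 3.05 ± 0.28 and Sphk1, sphingosine kinase 1, by 2.44 ± 0.19, and Sphk1 rose most in mouse B, from 0.26 to 3.26 log2 CPM. Rnf169, a ubiquitin-binding protein of the DNA damage response, rose by 2.16 ± 0.13 and Cytip, a regulator of leukocyte adhesion, by 2.04 ± 0.07. The largest change of all belonged to Fzd4, a Wnt receptor, which lay below the level set for naming and is named here after its values were seen. It was at -2.77, -1.72 and -1.79 log2 CPM with LPS and at 3.52, 3.76 and 3.65 with LPS and Dex, a change of 5.74 from a level of few reads. The next increases included Abhd15, a lipid metabolism gene (2.01), Sik1, a salt-inducible kinase (1.96), the stress kinase gene Map3k6 (1.86), Ddit4, an inhibitor of mTORC1 (1.70), and Nfil3, a bZIP repressor (1.62).

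**Figure D2:**
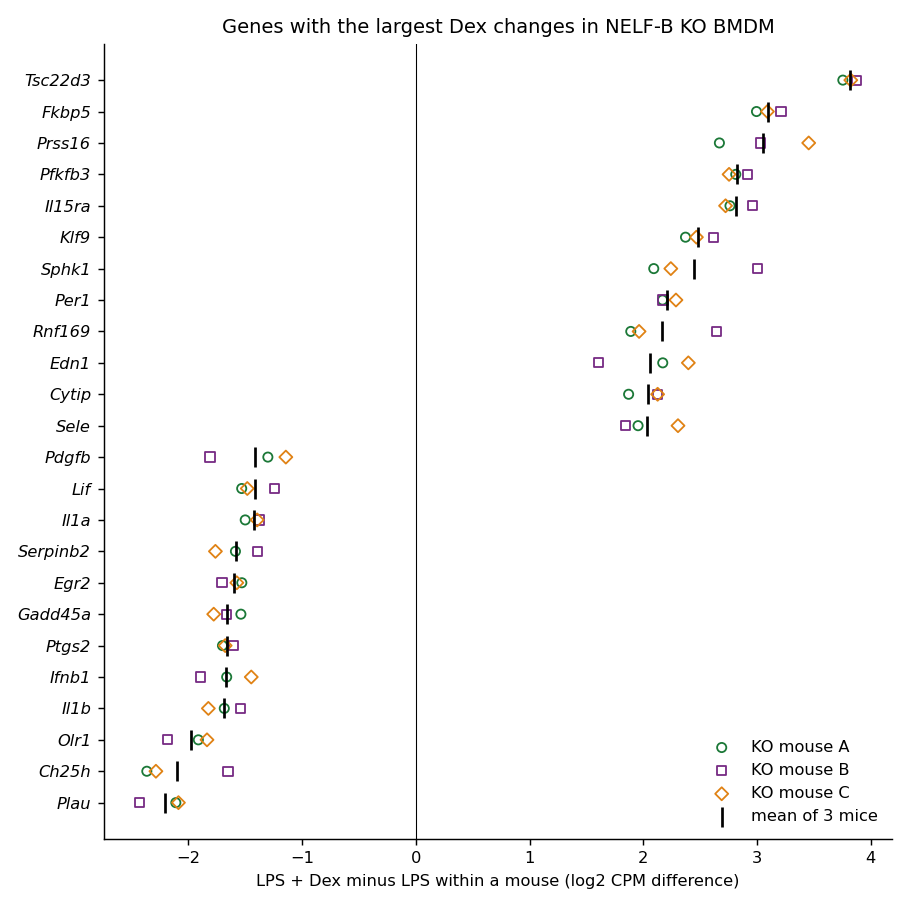
Log2 CPM difference between the LPS + Dex and LPS libraries of each KO mouse (horizontal axis) for the 12 named genes with the largest increases and the 12 with the largest decreases (vertical axis). Open symbols are mice A, B and C and the black bar is their mean. The mice lie on the same side of 0 for all 24 genes, which the rule for naming them required. The widest spreads are those of Prss16, Sphk1 and Edn1 among the increases.

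Genes were classed by their response to LPS in WT libraries. The KO changes themselves use no WT value, but the WT LPS and LPS + Dex libraries share the estimate of spread behind the calls. LPS induced 328 genes in WT (3.41% of 9614, adjusted p under 0.1 and over 1.5-fold). In the KO, Dex lowered 122 of these (37.2%, against 2.48% of all genes) and raised 30 (9.15%, against 2.67%), and their median change was -0.25. Of the 9182 genes that LPS neither induced nor lowered in WT, 108 fell (1.18%) and 217 rose (2.36%). Of the 104 genes that LPS lowered, 8 fell and 10 rose. When the untreated library of WT mouse A was left out, 404 genes were classed as induced, of which 140 fell (34.7%) and 45 rose (11.1%).

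Most LPS-induced genes that fell with Dex stayed above their untreated level. In KO mice A and B, which have untreated libraries, the 122 induced genes that fell were a median of 2.30 above untreated with LPS and 1.60 with LPS and Dex on the log2 scale, and 117 of them still stood above untreated. The 30 induced genes that rose were a median of 1.96 above untreated with LPS and 2.75 with LPS and Dex. The 176 induced genes that were not called stood at 1.3 and 1.35. These medians share the LPS libraries with the Dex comparison and are given as levels only.

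Dex raised some of the genes that LPS also raised. Edn1, which codes for endothelin-1, was 2.79, 2.23 and 2.47 log2 CPM with LPS and 4.96, 3.83 and 4.86 with LPS and Dex, from an untreated -0.65 and -1.45. Its change was 2.06 ± 0.13 (adjusted p = 2.17e-07). Sele, the adhesion molecule E-selectin, rose by 2.03 ± 0.14. Il10, the anti-inflammatory cytokine, was 6.79, 7.46 and 6.99 with LPS and 7.99, 8.25 and 8.17 with Dex added (1.05 ± 0.07, adjusted p = 5.59e-07), and the groups did not overlap. The other genes of this group with the largest increases, picked after their values were seen, were the AP-1 repressor Jdp2 (1.62), the transcription factor Klf4 (1.52), the CBP/p300 binding protein Cited2 (1.16), the scramblase Plscr1 (0.99) and the sphingomyelin synthase Sgms1 (0.95).

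Other decreases lay outside the LPS-induced class. Enc1, an actin-binding Kelch protein, was 6.24, 5.61 and 6.17 log2 CPM with LPS and 4.79, 4.46 and 4.55 with LPS and Dex, against 6.25 and 5.91 untreated, so that its levels with LPS and Dex were also the lowest of the 3 conditions. Its change was -1.41 ± 0.08 (adjusted p = 8.92e-08). Lfng, a Notch glycosyltransferase, fell by 1.05 ± 0.05, the clock repressor Nr1d1 by 1.05 ± 0.07, the zinc finger repressor Zfp703 by 1.03 ± 0.06, and Mylip, a ubiquitin ligase of lipid control, by 0.96 ± 0.04. These genes were picked after their values were seen.

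**Figure D3:**
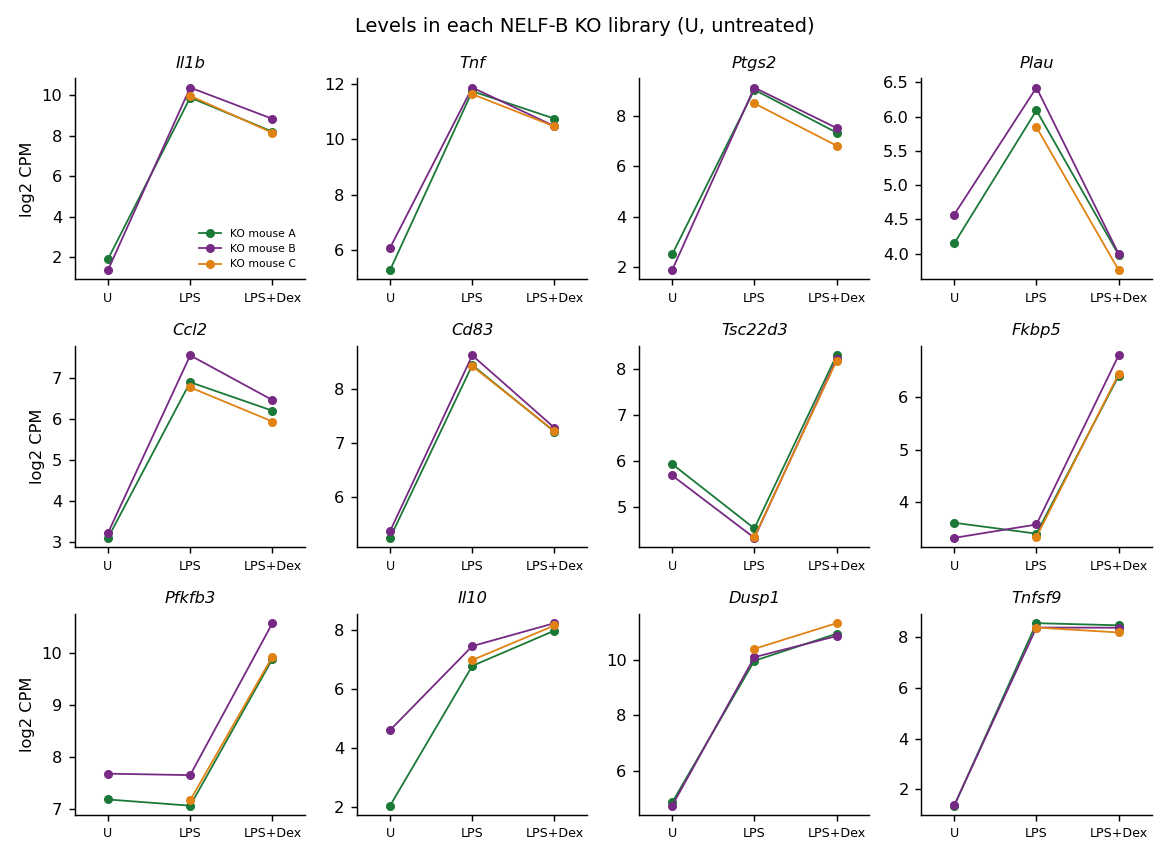
Log2 CPM of 12 genes (vertical axes, each with its own range) in each KO library that was untreated (U), treated with LPS or treated with LPS and Dex (horizontal axis), with a line for each mouse; mouse C has no untreated library. Il1b, Tnf, Ptgs2, Ccl2 and Cd83 fall with Dex to levels above untreated, Plau falls below untreated, Il10 and Dusp1 rise further, and Tnfsf9 changes by -0.10.

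A list of LPS-induced genes that Dex lowers was drawn up in the study on WT libraries. Of its 201 genes, 173 are in the table. The KO libraries were not among those compared to choose it, but whether they shared the fit behind it was not settled here. In the KO, Dex lowered 135 of the 173 (78.0%, against 2.48% of all genes), raised 0, and left 38 uncalled. A blocked fit of all 16 libraries called 72 of them lower and a fit with no block 32. The median change was -0.55, and 171 of the 173 were lower in each of the 3 KO mice. By mouse the median was -0.553, -0.609 and -0.553 in A, B and C. Of the 173, 147 were in the class that LPS induced in the WT libraries here. The other 181 genes of that class had a median change of -0.03 in the KO. Of those 181, 4 fell (2.21%, against 2.48% of all genes) and 30 rose (16.6%, against 2.67%).

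The study also followed 10 GR-repressed genes singly, and all 10 fell in the KO. Il1b, the pyrogenic cytokine interleukin-1 beta, was 9.88, 10.37 and 9.96 log2 CPM with LPS and 8.19, 8.83 and 8.14 with LPS and Dex (-1.68 ± 0.05, adjusted p = 3.24e-10). Tnf was 11.74, 11.87 and 11.63 with LPS and 10.75, 10.47 and 10.46 with Dex added (-1.18 ± 0.08, adjusted p = 4e-07). For both genes every LPS library stood above every LPS + Dex library. Il1a fell by 1.42 ± 0.07, Lif, an IL-6 family cytokine, by 1.42 ± 0.11, Cd83, a surface molecule of activated antigen-presenting cells, by 1.26 ± 0.04, and the monocyte chemokine Ccl2 by 0.87 ± 0.07. The decreases were smaller for the lipid droplet gene Hilpda (-0.62 ± 0.06), the antiproliferative gene Btg2 (-0.55 ± 0.04), the proto-oncogene Myc (-0.53 ± 0.05) and the EGFR inhibitor Errfi1 (-0.52 ± 0.05). Over the 10 genes the median was -1.03 in the KO and -0.93 in WT. The limma test of the genotype difference called 0 of the 10, and 2 had an unadjusted p under 0.05, both less lowered in the KO. These 2 were not matched here to the genes that the study separated by RT-qPCR. Il1b fell less in the KO than in WT by point estimate, a difference that did not pass the adjusted test. By RT-qPCR, at an earlier time for Tnf, the study reported weaker Dex repression in the KO for Tnf, Myc, Errfi1 and Ccl2. It reported no such loss for Il1b and Lif. The study also compared LPS + Dex levels between the genotypes by RNA-seq and reported that some genes of its list were higher in the KO. That measure is a level under LPS + Dex and not the change from LPS to LPS + Dex tested here.

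A group of LPS-induced genes had also been followed singly as Dex-insensitive. Of these 4 genes, 3 were not called in the KO. Tnfsf9, which codes for 4-1BB ligand, was 8.54, 8.37 and 8.37 log2 CPM with LPS and 8.45, 8.36 and 8.17 with LPS and Dex, a change of -0.10 ± 0.04 (adjusted p = 0.187). The costimulatory receptor Cd40 and the ubiquitin ligase Trim13 both changed by 0.04, with adjusted p of 0.774 and 0.87. Cxcl10, an interferon-inducible chemokine, did fall, from 8.37, 8.79 and 8.22 to 7.65, 7.88 and 7.33 log2 CPM (-0.84 ± 0.04, adjusted p = 1.96e-08), and the groups did not overlap. It was also called lower in WT (-0.82), and its call in the KO was lost in the blocked fit of all 16 libraries and in the fit with no block.

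Most cytokine and growth factor genes fell. Of 23 measured, 16 fell (69.6%, against 2.48% of all genes) and 2 rose (8.7%, against 2.67%), with a median of -0.84. All 23 were LPS-induced in WT, a class in which 37.2% fell. Ifnb1, interferon beta, was at the floor of -5.15 log2 CPM in both untreated KO libraries, at 5.09, 6.76 and 5.02 with LPS and at 3.42, 4.87 and 3.58 with LPS and Dex (-1.67 ± 0.07, adjusted p = 6.07e-09). Mouse B had the most Ifnb1 in both conditions. Il6 fell by 1.08 ± 0.07, Il12b, the p40 subunit of IL-12 and IL-23, by 1.14 ± 0.10, and the bone morphogenetic protein gene Bmp2 by 1.22 ± 0.07. The decreases also took in Il1rn, the IL-1 receptor antagonist, which went from 7.61, 8.20 and 7.32 to 6.65, 7.09 and 6.32 (-1.02 ± 0.04, adjusted p = 1.01e-09). The 2 that rose were Il10 and Edn1. Csf1 (-0.20), Csf3 (-0.12) and Tnfsf15 (-0.09) were among the 5 not called.

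Chemokines were split. Of 15 measured, 5 fell (33.3%, against 2.48% of all genes) and 0 rose, with a median of -0.26. LPS induced 11 of the 15 in WT, a class in which 37.2% fell with a median of -0.25. Ccl3, Ccl2, Cxcl10, Ccl4 and Ccl7, which attract monocytes and lymphocytes, fell by 0.88, 0.87, 0.84, 0.62 and 0.58. The neutrophil chemokines were not called, with changes of 0.16 for Cxcl1, -0.26 for Cxcl2 and -0.34 for Cxcl3. Cxcl1 was 8.25, 8.74 and 8.40 log2 CPM with LPS and 8.46, 8.91 and 8.49 with Dex added, so that each mouse was slightly higher with Dex.

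NF-kB is the transcription factor through which much of the LPS response runs. Of 22 NF-kB pathway genes, 12 were LPS-induced in WT, a class in which 37.2% fell. In the KO 7 of the 22 fell (31.8%, against 2.48% of all genes) and 0 rose, with a median of -0.21. Those that fell were the A20-binding inhibitor Tnip3 (-0.85), the nuclear IkB proteins Bcl3 (-0.76) and Nfkbid (-0.57), the signalling proteins Malt1 (-0.55), Ripk2 (-0.51) and Traf1 (-0.48) and the inhibitor Nfkbie (-0.44). The DNA-binding subunits were not called at this fold, with -0.17 for Nfkb1, -0.19 for Nfkb2, -0.20 for Rel, -0.23 for Rela and -0.18 for Relb. Nfkbia, the IkB alpha gene that is a known GR target in other cells, changed by -0.13 ± 0.05 (adjusted p = 0.116), and Tnfaip3, which codes for the inhibitor A20, by 0.11 ± 0.04 (adjusted p = 0.0823). Of 16 genes of the LPS receptor and its adaptors, 1 fell (6.25%), the TRIF adaptor Ticam2 (-0.61 ± 0.06), and 0 rose, with a median of 0.01; without mouse A or mouse C, 1 was called higher.

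AP-1 and immediate-early genes went both ways. Of 24 measured, 12 fell (against 2.48% of all genes) and 3 rose (12.5%, against 2.67%, and 1 gene without mouse A), with a median of -0.41. After Egr2, the largest decreases were those of the survival gene Ier3 (-1.32 ± 0.06), the nuclear receptor Nr4a2 (-1.22 ± 0.11), the Fos family member Fosb (-1.10 ± 0.16) and the stress factor Atf3 (-0.98 ± 0.05). Jun rose by 0.54 ± 0.07, from 8.01, 8.05 and 8.38 to 8.47, 8.85 and 8.74 log2 CPM, whereas Junb fell by 0.47 ± 0.09. Fos was 0.34 higher and Egr1 0.27 lower, neither past 1.3-fold.

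The MAP kinase phosphatases, which switch off Erk, p38 and Jnk, also differed from member to member. Dusp1, the phosphatase that glucocorticoids are known to induce, rose from 9.97, 10.11 and 10.41 to 10.95, 10.87 and 11.33 log2 CPM (0.89 ± 0.05, adjusted p = 5.08e-08). Dusp6 rose by 0.58 ± 0.05. Dusp8 fell by 1.19 ± 0.10, Dusp4 by 1.18 ± 0.08 and Dusp5 by 0.43, and the other 4 of the 9 measured were not called. Thus 33.3% fell (against 2.48% of all genes) and 22.2% rose (against 2.67%). Without mouse A, and again without mouse C, 2 were lower and 3 higher. LPS induced 6 of the 9 in WT, a class in which 37.2% fell. The regulators of mRNA decay gave 3 decreases (against 2.48% of all genes) and 2 increases (13.3%, against 2.67%) among 15 genes. Zfp36, which codes for tristetraprolin, a protein that destabilizes Tnf mRNA, went from 11.31, 11.35 and 11.30 to 10.74, 10.48 and 10.58 (-0.72 ± 0.05, adjusted p = 5.89e-07). Its relative Zfp36l1 rose by 0.66 and the RNase Zc3h12a by 0.40 ± 0.04, the latter not called without mouse B.

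Of 20 measured genes that glucocorticoids are known to induce, 8 rose (40.0%, against 2.67% of all genes) and 3 fell (against 2.48%), with a median of 0.09. Beside Tsc22d3, Fkbp5, Klf9, Per1 and Dusp1, those that rose were Ddit4 (1.70), Hif3a, an inhibitor of hypoxia signalling (1.53), and Klf4 (1.52). The 3 that fell were Zfp36 (-0.72), Angptl4, a lipase inhibitor (-0.57), and Errfi1 (-0.52). Sgk1, a kinase gene that is a GR target in many tissues, was 9.17, 8.88 and 9.58 log2 CPM with LPS and 9.26, 8.91 and 9.64 with LPS and Dex, a change of 0.06 ± 0.04 (adjusted p = 0.341).

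Interferon-stimulated genes fell mainly in mouse B. Of 22 measured, 9 fell (40.9%, against 2.48% of all genes) and 0 rose over the 3 mice, with a median of -0.29, but the median by mouse was -0.101, -0.623 and -0.206 in A, B and C. Without mouse B, 2 of the 22 were called lower and the median was -0.13. Without mouse A, 11 were called, and without mouse C, 6. In WT 9 of the 22 were LPS-induced, a class in which 37.2% fell in the KO. Irf1, the transcription factor, fell by 0.93 ± 0.07 and lay at 8.97, 9.19 and 8.79 log2 CPM with LPS and 8.15, 8.12 and 7.90 with Dex added, without overlap. Ifit2 went from 6.59, 7.56 and 6.03 to 6.41, 6.30 and 5.72, so that most of its change came from mouse B. Ifnb1 and Ccr7 were also highest in that mouse, and their part in the result was not tested.

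Genes of lipid and carbon metabolism gave 7 decreases (36.8%, against 2.48% of all genes) and 1 increase (5.26%, against 2.67%) among 19. Besides Ch25h those that fell included Hcar2, the niacin receptor (-1.17 ± 0.08), Odc1 of polyamine synthesis (-0.70), the glucose transporters Slc2a6 (-0.58) and Slc2a1 (-0.49) and Insig1 of sterol control (-0.42 ± 0.03). Pfkfb3 was the gene that rose. In WT 9 of the 19 were LPS-induced, a class in which 37.2% fell in the KO. Genes of cell death and growth arrest gave 9 decreases and 2 increases (11.1%) among 18. All 3 Gadd45 genes fell, Gadd45g by 0.76 and Gadd45b by 0.67 beside Gadd45a, as did the death effectors Bbc3 (-0.54) and Bcl2l11 (-0.42 ± 0.03). The survival gene Bcl2l1 rose by 0.55 ± 0.04 and the death effector Pmaip1 by 0.48 ± 0.04.

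The next counts are small and stand against 2.48% of all genes lower and 2.67% higher. Of 13 prostaglandin genes 2 were lower (Ptgs2 and the prostacyclin receptor Ptgir, -0.51 ± 0.07) and 0 were higher. Of 17 surface and costimulatory molecules 2 fell, Olr1 and Cd83, and 1 rose, the activation antigen Cd69 (0.38), with 0 higher without mouse B and 2 without mouse C. In WT 13 of these 17 were LPS-induced, a class in which 37.2% fell in the KO. Of 14 genes of cytokine signalling feedback 2 fell, the kinase gene Pim1 (-0.74 ± 0.06) and the JAK inhibitor Socs3 (-0.52 ± 0.06). Among 10 heat shock genes Hspa1b was called lower (-0.71 ± 0.11), while its near-identical copy Hspa1a changed by -0.50 ± 0.22 (adjusted p = 0.175), and reads cannot be assigned to either with certainty. Of 12 housekeeping genes 0 were called, and their changes ran from -0.17 to 0.21.

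Genes for the receptor and the pausing machinery gave a single call, against 5.15% of all genes called. Of 19 genes for GR, its chaperones and its cofactors 0 were called, with changes of -0.08 to 0.15, and Nr3c1, the GR gene, was 6.91, 7.20 and 6.50 log2 CPM with LPS and 6.79, 7.09 and 6.48 with Dex added. Of 16 genes for pausing and elongation factors 1 fell, Brd2, a bromodomain protein that binds acetylated histones, from 9.21, 9.27 and 9.03 to 8.81, 8.69 and 8.58 (-0.48 ± 0.04, adjusted p = 1.21e-06). Hexim1 changed by -0.26 and Cdk9 by -0.17. The other NELF subunits changed by -0.13 (Nelfe), -0.03 (Nelfa) and 0.03 (Nelfcd).

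**Figure D4:**
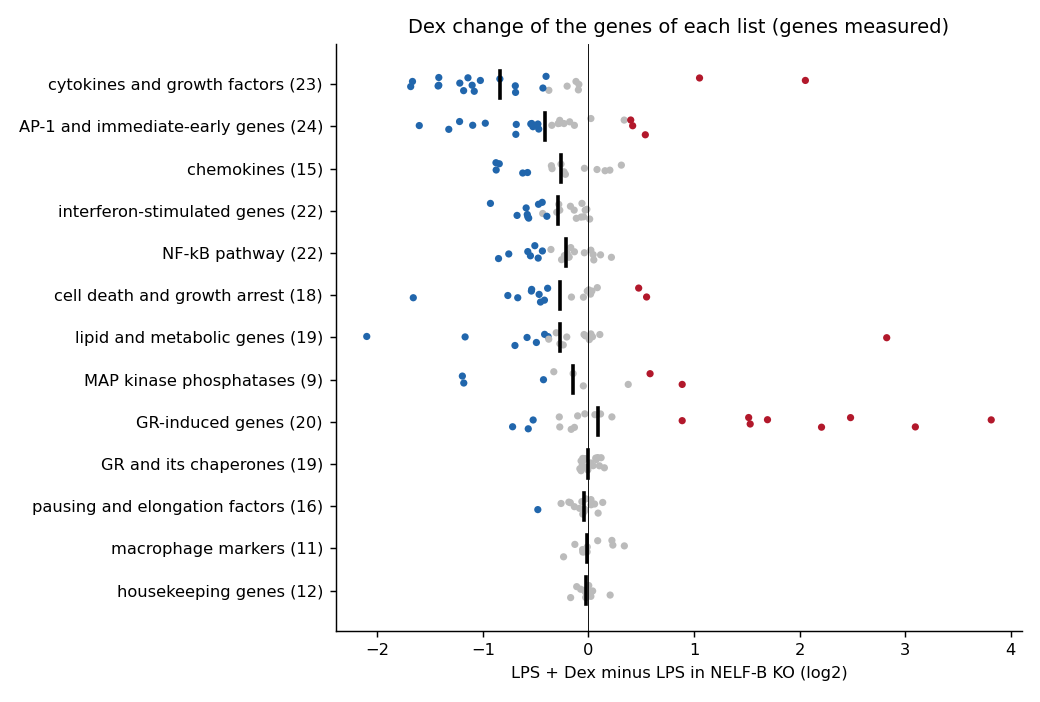
Log2 change with Dex in the KO (horizontal axis) of each measured gene in 13 gene lists (vertical axis, number of genes in brackets). Each point is a gene, blue if called lower, red if called higher and grey if not called, and the black bar is the list's median. Cytokines lie furthest to the left with a median of -0.84, while the GR, macrophage and housekeeping lists stay near 0.

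The WT libraries place these values beside the Dex response with NELF-B present. Dex lowered 206 genes in WT (2.14%) and raised 223 (2.32%). Of the genes called in the KO, 184 were also called lower and 193 also called higher in WT, and 0 were called in the opposite direction. For the list of 173 genes the median was -0.55 in both genotypes (the WT libraries chose the list), and the median difference was 0.016. The test of the difference itself called 0 of the 173, and 21 of them had an unadjusted p under 0.05, of which 14 were less lowered in the KO. Over all genes the difference passed an adjusted p of 0.05 for 1 gene (0.0104%), and 669 genes (6.96%) had an unadjusted p under 0.05. Of those 669, 442 had the higher change in the KO. Among the 495 genes called in the KO the 95% interval of the difference reached a median of 0.209 to either side on the log2 scale.

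The gene past the threshold was Dusp2, a nuclear phosphatase of Erk and p38. In the KO it was 8.29, 8.41 and 8.30 log2 CPM with LPS and 8.18, 8.31 and 8.07 with LPS and Dex, and in WT 6.48, 7.88 and 7.20 with LPS and 6.79, 8.19 and 7.55 with LPS and Dex. Each KO mouse was lower with Dex, by -0.14 ± 0.03 on average, and each WT mouse higher, by 0.32. The difference was -0.47 (95% interval -0.57 to -0.36, adjusted p = 0.00452). Without WT mouse C its adjusted p was 0.0826. With LPS alone Dusp2 stood higher in every KO library than in any WT library. The next genes by p were Pfkfb3, which rose 0.40 more in the KO (95% interval 0.27 to 0.52, adjusted p = 0.0539), the kinase gene Map3k2 (0.37 more, adjusted p = 0.138), the repressor Zbtb20 (0.47 more) and Gapdh (0.33 more). Several of the largest changes had larger point estimates in WT (Ptgs2, -2.0 against -1.66, and Il1b, -1.97 against -1.68) or in the KO (Plau, -1.85 in WT against -2.21), and none of these 3 differences passed the adjusted test.

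**Figure D5:**
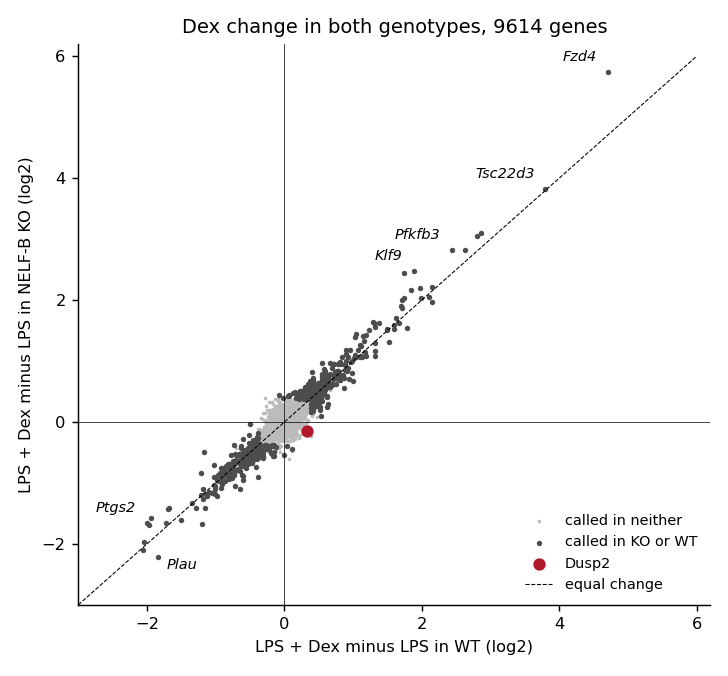
Log2 change with Dex in LPS-treated KO (vertical axis) against WT macrophages (horizontal axis), each the mean of 3 mice, for 9614 genes. Dark points are genes called in either genotype, the dashed line marks equal change, and the red point is Dusp2, at -0.14 in the KO and 0.32 in WT.

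Sequence upstream of the genes was searched for the DNA elements of GR and NF-kB, and 4 matches are printed so that the letters can be read beside the changes. The 250 bases before each RefSeq start site (GRCm38.p6) were available for 7795 of the genes. The GR element was searched as TGTNC and its inverted copy with 3 bases between, and the NF-kB site as GGG, any 2 bases and TTTCC, on both strands. The GR element stood upstream of 15 of the 7795 genes (0.192%), of 2 of 211 genes that rose in the KO (0.948%) and of 0 genes that fell. The NF-kB letters stood upstream of 141 genes (1.81%), of 6 genes that fell (3.21% of those with a sequence), of 4 of the 95 that fell and were LPS-induced in WT (4.21%) and of 4 of the 211 that rose (1.9%). A match is a description of letters and not a measured site. The fragments below are on the plus strand with the match in capitals. Those of Map3k6 (chr4:133240617-133240669) and the metallothionein gene Mt1 (chr8:94178975-94179027), which rose by 1.86 and 0.72, hold the GR element, and those of Il6 (chr5:30013050-30013099) and Il1rn (chr2:24345300-24345349), which fell by 1.08 and 1.02, the NF-kB letters.
Map3k6: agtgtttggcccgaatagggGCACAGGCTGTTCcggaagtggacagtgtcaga
Mt1: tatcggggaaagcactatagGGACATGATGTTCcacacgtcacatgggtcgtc
Il6: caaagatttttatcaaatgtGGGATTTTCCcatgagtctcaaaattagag
Il1rn: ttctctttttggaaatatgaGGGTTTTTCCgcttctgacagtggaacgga

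By GENCODE vM21 (GRCm38, also called mm10) Plau lies at chr14:20836660-20843385 on the plus strand, Il1b at chr2:129364570-129371139 on the minus strand and Ptgs2 at chr1:150100031-150108227 on the plus strand. Tsc22d3 lies at chrX:140539528-140600659, Fkbp5 at chr17:28399094-28517527 and Pfkfb3 at chr2:11471433-11554077, all on the minus strand. Nelfb lies at chr2:25199712-25211489 on the minus strand and Dusp2 at chr2:127336159-127338376 on the plus strand. All are protein-coding, and the values count reads over their exons. Antisense genes overlap part of the exons of Ch25h (11.5%), Gadd45a (19.1%), Il1a (11.2%), Abhd15 (29.1%), Pim1 (14.5%), Zfp703 (13.5%) and Tnfsf9 (14.9%), and Ticam2 shares 14.5% of its exons with Tmed7 on its own strand. Whether the counting used strand is not given in the sources used here, so these values are less certain.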

How the data were processed

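RNA from BMDM was sequenced as 50 bp paired reads from poly(A) libraries. The authors used CLC Bio Genomic Workbench to map reads to mm10 and to count those unique to the exons of a gene. The authors then scaled the counts with edgeR (trimmed mean of M values) and deposited them as log2 CPM of 9614 genes. CASAVA 1.8 and FastQC are named in the submitters' processing notes. The filter that left these genes is not given in the sources used here. The authors also deposited 18 columns of p-values and FDR of their own comparisons, which were not used.

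Groups and mouse numbers came from the sample labels. Differences were tested with limma 3.58.1 in R 4.3.3 (trended variance, no pseudocount or filter added) on the 12 LPS and LPS + Dex libraries, with mouse as a block, 1 Dex effect per genotype and their difference; p-values were adjusted over all genes by Benjamini-Hochberg. Calls required an adjusted p under 0.05 and over 1.3-fold. SE and intervals come from this fit. Mice are the replicates. The labels give LPS and LPS + Dex libraries of a mouse the same number, and their deviations from the group means correlated across genes (r of 0.78 to 0.9 in the KO and 0.88 to 0.94 in WT), so the fit is paired. LPS classes came from the 8 WT libraries with the same block.

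The deposited values rise in equal CPM steps, and with a step taken as 1 read 100.0% of values under 3 CPM came out whole within 0.15 read, which gave the depths. Depth bounds counting error only. The scripts were tested on simulated data.

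The members and lists were chosen with earlier results of these data known. Named genes were Nelfb, the 12 largest called decreases and increases at a mean of at least 1 log2 CPM whose 3 mice agreed in sign, the 4 genes with the smallest p in each list, all singly measured genes, the 5 genes with the smallest p for the genotype difference and motif holders. Other named genes were picked after their values were seen. Alternatives were fits with no block, 6 or 16 libraries, other filters, scales and thresholds, and fits leaving out each mouse. Of the genes, 9211 matched GENCODE vM21 by symbol. Some genes of the lists are not reported here by name.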

Additional observations from a re-analysis of the deposited data

Results flagged for a closer look

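Dusp2 was singled out because its Dex change differed between genotypes in the test of the difference itself. The change in the KO minus that in WT was -0.47 on the log2 scale (limma adjusted p = 0.00452), lower in 3 of 3 KO mice and higher in 3 of 3 WT mice. Its adjusted p ran from 0.00325 to 0.0826 over the alternatives with the mouse as a block other than the fit of all 16 libraries, and was 1.0 in that fit and without the block. The cause was not tested.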

How the results depend on the processing

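The count of genes lower and higher with Dex in the KO rested on pairing the libraries by mouse. With no replicate block, 49 genes were lower and 88 higher, all of them among the genes of the paired fit, 32 genes of the study's list were called lower and 0 genes differed between genotypes. In a blocked fit of all 16 libraries the counts were 108, 125, 72 and 0. An adjusted p alone with no fold limit gave 672 lower and 683 higher. An unadjusted p under 0.05 with over 1.5-fold gave 107, 142, 77 and 6, and an adjusted p under 0.1 with over 1.3-fold gave 2 genotype differences. When each mouse was left out in turn, the lower genes ranged from 225 to 246, the higher genes from 227 to 282, the list from 130 to 136 and the genotype difference from 0 (without WT mouse C) to 5 (without KO mouse B), with 3 without WT mouse B. The cause was not tested. A filter on mean level, log2(CPM + 1), centring on the median gene and voom on recovered reads (chosen after seeing the data) kept each of these counts within 1.5 times, and so did the 6 KO libraries alone for the counts of lower genes, higher genes and the list, a fit that gives no genotype difference. Of the 92 called genes among 131 named by rule or picked later, 42 lost their call without the block, 21 in the fit of all 16 libraries, 17 at the unadjusted threshold and 2 (Ifit1 and Zc3h12a) without KO mouse B, and 0 changed sign. With 3 mice per genotype, small differences between genotypes lie under the precision given above, and few reads stand behind scarce genes such as Fzd4.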
